A study of Homo sapiens with 24 samples.

Results

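The nuclear-encoded subunits of the respiratory chain and of ATP synthase were followed across 24 arrays of the human ovarian cancer line A2780. Members were the genes whose current symbol starts with NDUFA, NDUFB, NDUFC, NDUFS or NDUFV, the SDH genes, the UQCR genes and CYC1, the COX4I, COX5, COX6, COX7 and COX8 genes, and the ATP5F, ATP5M and ATP5P genes. Of 11940 genes measured, 73 met this rule, of 91 protein-coding genes that meet it in RefSeq. The other 18, SDHB and UQCRFS1 among them, were not analysed here. By complex there were 31 members in complex I, 3 in complex II, 8 in complex III, 15 in complex IV and 16 in complex V. NDUFA4 and NDUFA4L2, whose current symbols are COXFA4 and COXFA4L2, were counted with complex IV.

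The arrays came from 2 transfected A2780 lines, 12 of cells expressing Rab25 and 12 of cells with the empty vector pcDNA, and Rab25 is a small GTPase of endosome recycling. In each line 4 treatments had 2 arrays each and starvation medium alone had 4. The treatments were EGF and IGF, both at 10 ng/ml, TGF beta, at 5 ng/ml, and 5% fetal bovine serum (FBS). All cells had first been starved of serum for 8 h, and 1 array of each treated group and 2 of each starved group belonged to experiment 2 and the same numbers to experiment 1. Exposure lasted 24 h in experiment 2 and 8 h in experiment 1 according to the protocol, whereas the source names give 24 h for both. Each line is 1 transfectant, and whether it was a clone or a pool is not given in the sources used here. The samples are called independent without saying what was repeated, so p-values measure the spread between these arrays, which may be partly technical.

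The respiratory chain passes electrons from NADH (complex I) and succinate (complex II) through complex III and cytochrome c to oxygen at complex IV. The protons pumped on the way drive ATP synthase, complex V. Each of these complexes except II mixes subunits made in mitochondria with many made from nuclear genes, and cancer cells in culture often rely on glycolysis beside it. Factors such as NRF1 and GABP, a member of the ETS family, are known to act at the promoters of many nuclear subunit genes.

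Most members gave a strong signal, on a log2 scale as deposited by the authors, and the number of arrays limits the precision of what follows. On all 24 arrays 71 of the 73 lay above the lower quartile of that array's probe sets, controls left out. The exceptions were COX7A1, the isoform of heart and skeletal muscle, which lay below the lower quartile on all 24 arrays (5.07 to 5.48), and NDUFA4L2, a gene known to be induced by low oxygen, which lay below it on 16 arrays. COX6A2, the other muscle isoform measured, lay above it on every array. For 50 members there was 1 probe set and for 23 there were several, of which the one of highest mean was used. The probe sets of 8 members, SDHA and ATP5MG among them, carry the suffix x_at, which marks probes that may also match related sequences.

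The arrays matched their line labels, since RAB25 ran from 8.18 to 9.08 in Rab25 cells (median 8.69), against 4.90 to 5.60 in pcDNA cells (median 5.32). Of the ovarian carcinoma markers, PAX8, KRT7, KRT8, KRT18 and VIM were high on all 24 arrays, whereas MUC16 lay below the lower quartile on 24, EPCAM on 23, KRT19 on 22 and CDH1 on 15. Both FBS arrays of Rab25 cells stood apart, because markers of other cell types were high there. Of 10 fibroblast markers, 5 (COL1A1, COL1A2, COL3A1, LUM and POSTN) exceeded all 22 other arrays by more than 1 log2 unit on both. The summed linear signal of that list was 21995 in experiment 1 and 8798 in experiment 2 on those arrays, against 3936 to 6629 on the other arrays. Of 14 breast epithelium markers 2 did so on the array of experiment 2 and 6 on that of experiment 1, of 8 macrophage markers 1 and 3, and of 8 adipocyte markers 2 and 0. Of the blood cell, endothelial, liver and muscle markers 0 did so, and EPCAM and KRT19 did so on the array of experiment 1. The main counts that use these arrays are therefore given with and without them.

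**Figure D1:**
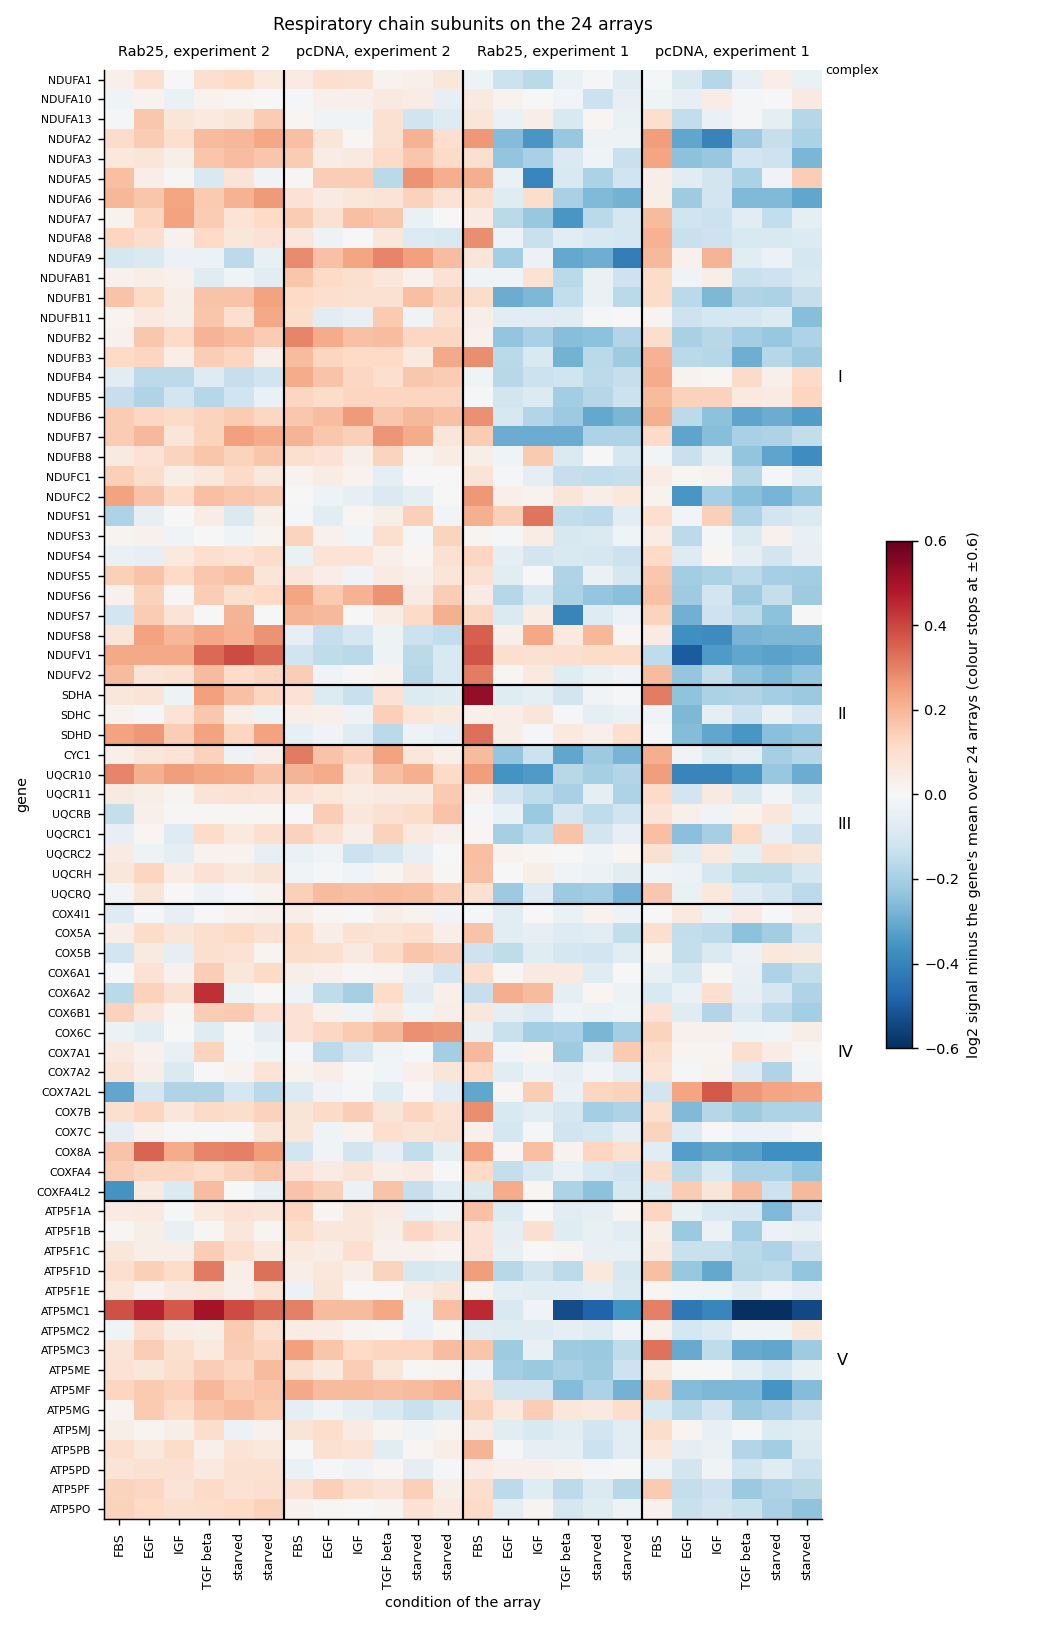
Each row is 1 of the 73 members, grouped by complex, and each column 1 of the 24 arrays; colour gives the log2 signal minus the gene's mean over all arrays. Most rows are pale red in experiment 2 and blue in experiment 1, except in the 2 FBS columns of experiment 1, and rows such as NDUFV1, COX8A and NDUFB4 also differ between Rab25 and pcDNA columns.

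The clearest pattern of the subunit genes was one of experiment and serum. Without FBS, the members as a group were higher in experiment 2 than in experiment 1 in both lines, and cells given FBS stood at the higher level in both experiments. The median over members of the deviation from each gene's mean was 0.03 to 0.11 log2 units on the 10 arrays of experiment 2 without FBS and -0.15 to -0.05 on the 10 arrays of experiment 1 without FBS, so the 2 sets of arrays did not overlap. In bulk RNA, fewer cells that express a gene and less of its RNA per cell cannot be told apart. On the FBS arrays it was 0.05 in Rab25 and 0.08 in pcDNA cells in experiment 2, and 0.10 in Rab25 and 0.10 in pcDNA cells in experiment 1. The median over all 11940 genes stayed within -0.08 to 0.02 on the same 24 arrays.

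**Figure D2:**
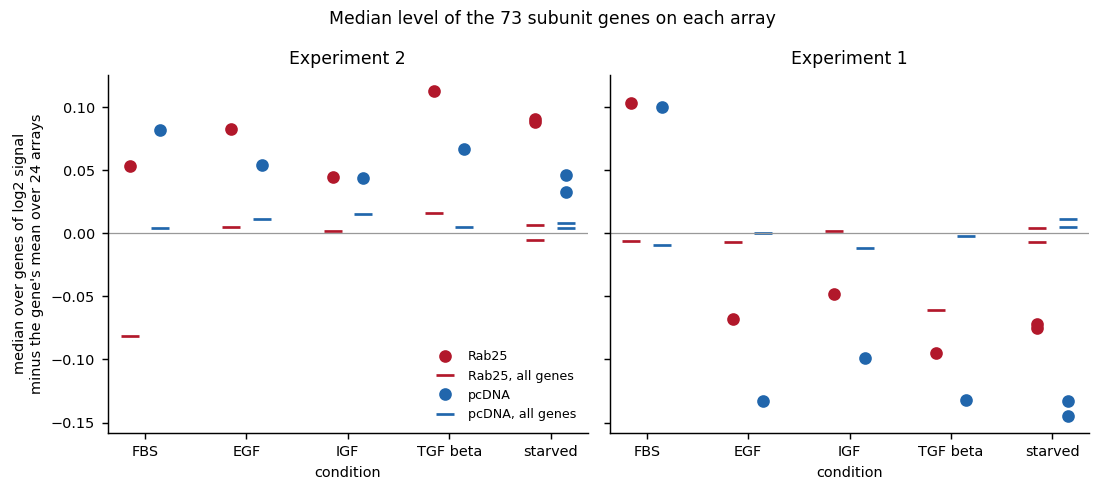
Circles give, for each array, the median over the 73 members of the log2 signal minus the gene's mean over 24 arrays; bars give the same median over all 11940 genes. In experiment 2 all circles lie above 0, and in experiment 1 only the circles of the FBS arrays do.

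In starved cells, 42 members were higher and 1 was lower in experiment 2 than in experiment 1 (limma adjusted p under 0.05 over all genes, in a fit with condition-by-experiment terms that was chosen after the data were seen). Over all genes 14.8% were called higher and 16.6% lower, and the median difference was 0.16 over members and 0.01 over all genes. The higher members were 19 of 31 in complex I, 2 of 3 in complex II, 7 of 8 in complex III, 6 of 15 in complex IV and 8 of 16 in complex V. With 1 experiment term for all conditions, 50 were higher and 1 was lower, against 20% and 20.4% of all genes. In all 8 line-by-condition cells without FBS, 49 of the 73 were higher in experiment 2, which held for 16.4% of all genes.

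ATP5MC1 differed most between the experiments. It is 1 of 3 genes for subunit c, the protein of the rotor ring of ATP synthase, and all 3 encode the same mature protein. ATP5MC1 had a signal of 11.14 and 11.09 in Rab25 and 10.72 and 10.93 in pcDNA starved cells of experiment 2, against 10.27 and 10.39 in Rab25 and 10.00 and 10.21 in pcDNA starved cells of experiment 1. Every starved array of experiment 2 was above every one of experiment 1, by 0.75 log2 units in the fit (SE 0.07, limma adjusted p = 3.78e-06), or 1.69-fold. The second subunit c gene, ATP5MC3, was 0.37 higher (SE 0.05) and called, and the third, ATP5MC2, differed by 0.07 (SE 0.05) and was not. NDUFB6, NDUFA6 and NDUFB2, accessory subunits of complex I, were 0.46, 0.45 and 0.36 higher, ATP5MF, subunit f of ATP synthase, 0.46 and UQCR10, a small subunit of complex III, 0.40. The 1 member that was lower was COX7A2L, known for joining complexes III and IV in supercomplexes. Its signal was 11.88 and 11.82 in Rab25 and 11.99 and 11.92 in pcDNA starved cells of experiment 2, against 12.11 and 12.12 in Rab25 and 12.22 and 12.21 in pcDNA starved cells of experiment 1. The 2 sets did not overlap, and COX7A2L was 0.26 lower in experiment 2 (SE 0.05, limma adjusted p = 0.000893).

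FBS was associated with higher subunit genes in experiment 1, where 44 of 73 were higher and 1 was lower than in starved cells over both lines, while in experiment 2 limma called 0 of 73. In experiment 2, 3 members had an unadjusted p under 0.05, and 8.25% of all genes were called; in experiment 1, 17% of all genes were called higher and 17.1% lower. The median over members was -0.01 in experiment 2 and 0.21 in experiment 1, beside -0.04 and -0.02 over all genes. The response to FBS was smaller in experiment 2 than in experiment 1 for 29 members and larger, that is less negative, for COX7A2L (limma test of the difference itself), whereas 12.9% of all genes had a lower and 9.53% a higher response. After centring each array on its median, 4 members had a lower and 1 a higher response, and 22.1% of all genes were called. The median over members was then -0.10 and that over all genes 0.08, against -0.22 and -0.04 as deposited. These comparisons share the starved arrays of experiment 1 with the one between experiments in starved cells, so they are not separate evidence. Set against each other, FBS cells of experiment 2 and of experiment 1 differed in 1 member, SDHA, which was 0.34 lower in experiment 2 (SE 0.07, limma adjusted p = 0.00255), whereas 23.8% of all genes were called.

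FBS exceeded starved cells for 15 of 73 members in both lines in experiment 2 and for 64 in experiment 1, as it did for 19.2% and 31.9% of all genes. Within lines of experiment 1, the median response was 0.18 in Rab25 and 0.22 in pcDNA cells. In experiment 2 it was -0.03 in Rab25 cells, with 25 members above starved cells, and 0.03 in pcDNA cells, with 44. Without both Rab25 FBS arrays, 0 members were called in experiment 2 and 34 higher and 1 lower in experiment 1 (26.5% of all genes called), with a median of 0.21, while the difference between experiments was called lower for 8 members, against 5.37% of all genes, and SDHA was no longer called between FBS cells. Each FBS group had 1 array per experiment. Leaving out the Rab25 FBS array of experiment 1 left 19 calls in experiment 1 and leaving out the pcDNA one left 27. For the difference between experiments, the 30 calls became 8 without either Rab25 FBS array, 19 without starved array 1-1 of pcDNA and 18 without starved array 1-2 of Rab25.

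**Figure D3:**
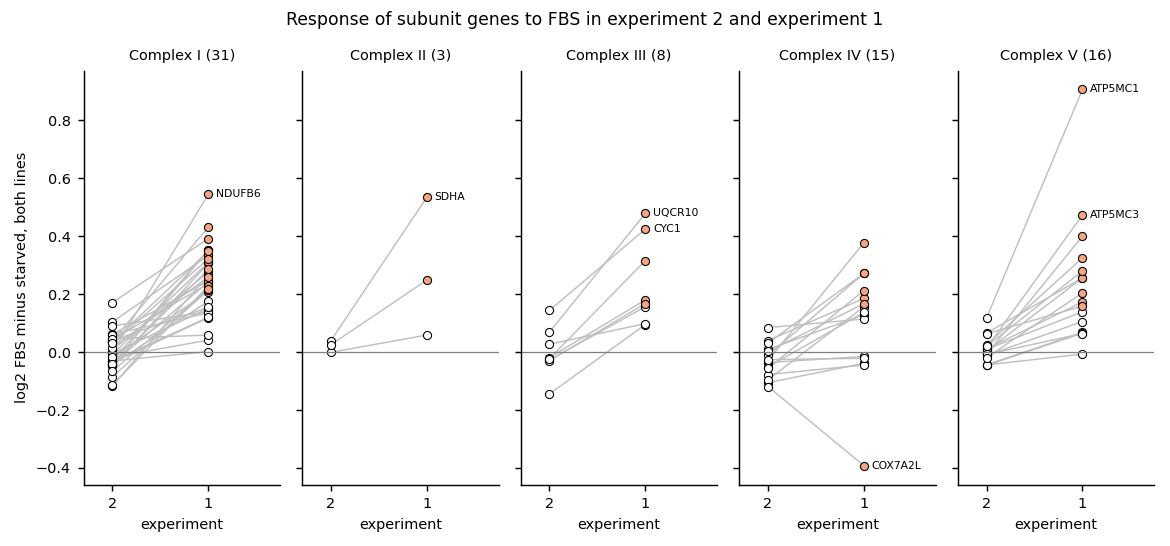
Each point is the log2 difference of FBS from starved cells over both lines for 1 member, in experiment 2 (left) and experiment 1 (right) of each panel, 1 panel per complex; filled points passed the adjusted threshold of 0.05. All points of experiment 2 are open, and in experiment 1 the called points lie above 0 except COX7A2L at -0.39.

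In experiment 1 the members called higher with FBS were 20 of 31 in complex I, 2 of 3 in complex II, 5 of 8 in complex III, 7 of 15 in complex IV and 10 of 16 in complex V. ATP5MC1 was again the member with the largest difference. Its signal was 11.20 in Rab25 and 11.05 in pcDNA cells with FBS, against 10.27 and 10.39 in Rab25 and 10.00 and 10.21 in pcDNA starved cells, a difference of 0.91 (SE 0.08, limma adjusted p = 3.45e-06) or 1.88-fold. In experiment 2 the FBS arrays were at 11.13 in Rab25 and 11.05 in pcDNA cells. Starved arrays were at 11.14 and 11.09 in Rab25 and 10.72 and 10.93 in pcDNA cells. FBS thus exceeded starved cells there by 0.01 in Rab25 and 0.23 in pcDNA cells. The response of ATP5MC1 was thus 0.79 smaller in experiment 2 (SE 0.11, limma adjusted p = 0.000421). ATP5MC3 rose by 0.47 (SE 0.06) in experiment 1, and its second probe set showed 0.48, while ATP5MC2 differed by -0.01 (SE 0.06).

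SDHA, the flavoprotein of complex II that oxidises succinate, was 0.53 higher with FBS in experiment 1 (SE 0.06, limma adjusted p = 1.83e-05). Its signal was 10.57 in Rab25 and 10.35 in pcDNA cells with FBS, against 10.02 and 10.03 in Rab25 and 9.84 and 9.82 in pcDNA starved cells. Both FBS arrays exceeded every other array of the 24. In experiment 2 FBS and starved cells overlapped over both lines, with 10.11 and 10.13 against 9.96 to 10.22. Within lines the FBS difference there was -0.085 in Rab25 and 0.164 in pcDNA cells. NDUFB6 rose by 0.54, UQCR10 by 0.48, CYC1, the cytochrome c1 of complex III, by 0.43, and NDUFV2, an iron-sulphur subunit of the NADH-oxidising end of complex I, by 0.39. COX7A2L fell by 0.39 on the log2 scale (SE 0.06, limma adjusted p = 0.000195), with 11.67 in Rab25 and 11.87 in pcDNA cells with FBS, against 12.11 to 12.22 in starved cells. Without both Rab25 FBS arrays the differences in experiment 1 were 0.96 for ATP5MC1, 0.53 for SDHA and -0.35 for COX7A2L, all called. Not every member moved: COX4I1, the general isoform of a nuclear subunit of complex IV, differed by -0.01 (SE 0.06), ATP5F1B, the catalytic beta subunit, by 0.11 (SE 0.07) and NDUFA1 by 0.00 (SE 0.06).

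**Figure D4:**
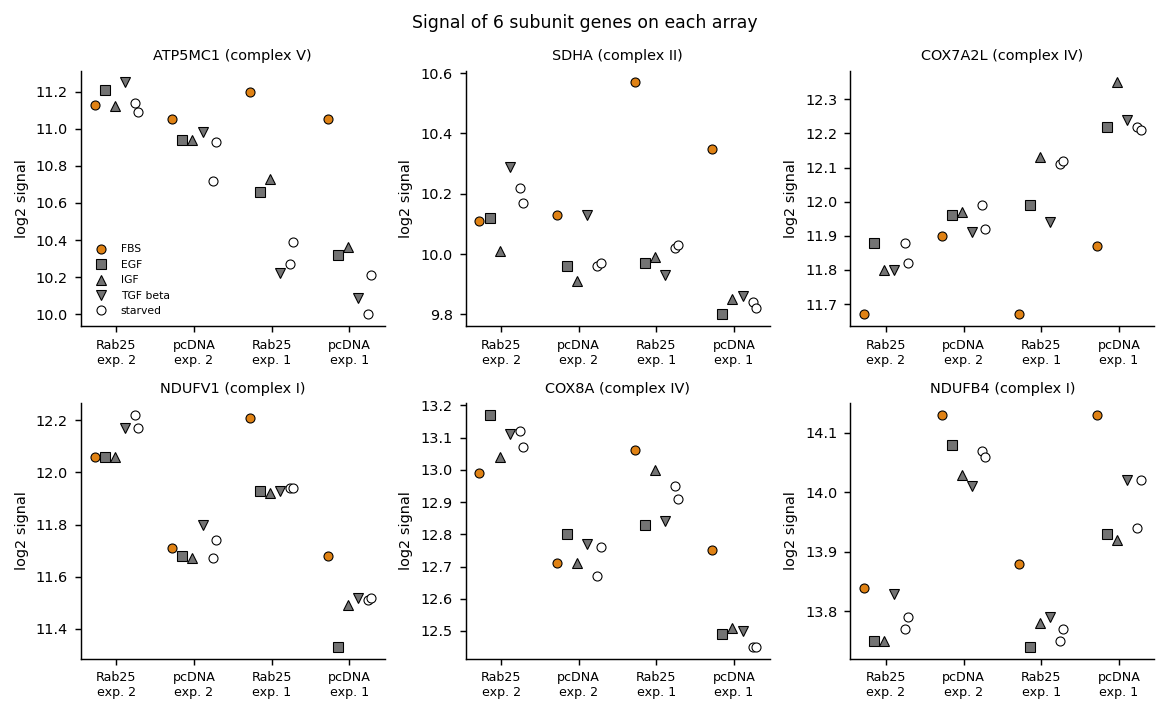
Points give the log2 signal of 6 members on every array, in 4 blocks of line and experiment, with FBS arrays in orange and starved arrays open; each panel has its own scale. In experiment 1 the FBS points of ATP5MC1 and SDHA lie above the others of their block and those of COX7A2L below, and NDUFV1, COX8A and NDUFB4 differ between lines.

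For members with several probe sets that were called with FBS in experiment 1, 13 of 17 other probe sets had the same sign and 7 of these were called. In the opposite direction were 1 probe set each of COX5A, NDUFA2, NDUFB2 and SDHD, whose mean signals were at most 6.13, and that of NDUFB2 was itself called lower at -0.24. Agreement was weaker for the experiments in starved cells, where 9 of 16 other probe sets of called members had the same sign. Probe sets of ATP5F1C, COX5A, NDUFA2, NDUFA5, NDUFB7, NDUFB8 and SDHD were opposite there. That of ATP5F1C, with a mean signal of 8.72, showed -0.20 against 0.15 for the one used. The 3' minus 5' signal of control probe sets, a measure of RNA quality, was also read by experiment and FBS. For ACTB its median without FBS was 0.82 in experiment 2 and 0.89 in experiment 1. The ranges, 0.66 to 0.93 and 0.76 to 1.17, overlapped. With FBS the ACTB median was 0.69 in experiment 2 and 0.73 in experiment 1. For GAPDH the medians without FBS went the other way, at 0.30 in experiment 2 and 0.26 in experiment 1. With FBS they were 0.28 and 0.27. The part of RNA quality in the results was not tested.

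With both experiments pooled in 1 fit, fewer FBS calls were made. In Rab25 cells COX7A2L was 0.31 lower (SE 0.08, limma adjusted p = 0.0288) and 0 members were higher, and in pcDNA cells NDUFV2 (0.36), CYC1 (0.33) and ATP5F1A, the alpha subunit of ATP synthase (0.24), were higher and 0 lower. Over all genes 2.64% were called higher and 5.08% lower in Rab25 cells, and 2.31% higher and 4.44% lower in pcDNA cells. The response did not pass the test of a difference between the lines for any of 73 members (limma, 1 with an unadjusted p under 0.05, 0.209% of all genes called). Array weights or a fit without the experiment term left 0 calls in each line. Few genes of any kind were called then, 0.553% and 0.511% in pcDNA cells and 0.335% and 1.3% in Rab25 cells.

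The promoters of the members, called or not, were searched for the letters bound by known regulators, because NRF1 and ETS factors act on this gene family. RefSeq sequences (GRCh38.p14) were found for 61 of the 73 members. In the 250 bases before the gene start, 18.0% of the members held the NRF1 letters (GCGCA, any base, then GCGC) on either strand, against 5.53% of 27305 promoters, and 24.6% held the ETS letters CCGGAAG, against 8.82%. The YY1 letters AAGATGGCG were in 1.64% of the members and 0.641% of all promoters, and those of ERR alpha, TCAAGGTCA, in 0 and 0.319%. Of the 61, 37 were called higher with FBS in experiment 1, and these included 8 of the 11 members with NRF1 letters and 8 of the 15 with ETS letters. The 100 bases before the start are shown for SDHA, which holds the NRF1 letters in a pair, for COX8A, which holds the ETS letters on the reverse strand, and for ATP5MC1 and NDUFB6, whose 100 bases hold none of the 4 motifs; capitals mark the matches.
SDHA (chr5:218220-218319, plus strand): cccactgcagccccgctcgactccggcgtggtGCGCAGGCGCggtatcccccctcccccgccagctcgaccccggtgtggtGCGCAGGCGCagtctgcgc
COX8A (chr11:63974520-63974619, plus strand): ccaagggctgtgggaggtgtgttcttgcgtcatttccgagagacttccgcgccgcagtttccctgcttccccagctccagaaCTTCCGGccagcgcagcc
ATP5MC1 (chr17:48892687-48892786, plus strand): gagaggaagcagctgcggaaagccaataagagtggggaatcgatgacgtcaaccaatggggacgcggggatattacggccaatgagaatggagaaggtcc
NDUFB6 (chr9:32573160-32573259, minus strand): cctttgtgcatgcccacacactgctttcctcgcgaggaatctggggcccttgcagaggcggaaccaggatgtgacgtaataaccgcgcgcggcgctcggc

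The growth factors EGF, IGF and TGF beta changed 0 of 73 members over both lines and experiments. In limma, 1, 4 and 2 members had an unadjusted p under 0.05, and 0%, 2.71% and 1.6% of all genes were called. The lowest adjusted p among members was 0.659 for EGF, 0.182 for IGF and 0.23 for TGF beta. The responses of Rab25 and pcDNA cells to these factors differed in 0 members, as in 0% of all genes. Within the experiments, EGF changed 0 members in either (0.653% of all genes in experiment 2 and 0.184% in experiment 1, with 0 and 8 members at an unadjusted p under 0.05). IGF changed 0 members in experiment 2 (2.34% of all genes, 2 members at an unadjusted p under 0.05) and 6 in experiment 1, where 9.97% of all genes were called. The experiment 1 calls were NDUFS1, the largest iron-sulphur subunit of complex I, at 0.34, ATP5MC1 at 0.33, NDUFA9 at 0.29, NDUFA6 at 0.28 and NDUFB8 at 0.25, and NDUFA2 was lower at -0.28. As a share of the members they did not exceed the share of all genes. Fewer members were called in a fit of experiment 1 alone, where each IGF group had 1 array. The difference between experiments in the IGF response passed the test for 0 members (1.42% of all genes). With TGF beta in experiment 2, NDUFA5 was 0.26 lower (limma adjusted p = 0.0481, 2.99% of all genes called), a call lost without both Rab25 FBS arrays. The gap was larger in pcDNA cells, at 10.63 against 11.06 and 11.01 in starved cells. In Rab25 cells it was 10.70 against 10.87 and 10.77, with 1 TGF beta array per line. TGF beta changed 0 members in experiment 1 (1.29% of all genes, 2 members at an unadjusted p under 0.05).

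As deposited, Rab25 and pcDNA cells differed in single subunits more than as a group, and this depended on scaling. Over all conditions 11 of 73 members were higher in Rab25 cells and 8 were lower, against 9.14% and 15.5% of all genes, and the median difference was 0.01 over members and -0.01 over all genes. By complex, 4 were higher and 3 lower in complex I, 1 and 0 in complex II, 1 and 2 in complex III, 2 and 3 in complex IV, and 3 and 0 in complex V. In starved cells alone 7 were higher and 5 lower, against 5.56% and 9.24% of all genes. After quantile normalization 21 were higher and 5 lower over all conditions (24.5% of all genes called), with a median of 0.05 over members and 0.01 over all genes. In starved cells these medians were 0.09 and 0.01. Centring each array on its median gave 30 higher and 4 lower over all conditions (26.7% of all genes called). The median was then 0.08 over members and 0.05 over all genes. Without both Rab25 FBS arrays 13 were higher and 8 lower, and 3 of the 19 calls, UQCRH, ATP5PO and COX5B, were lost. The 3' minus 5' signal of ACTB had a median of 0.77 in Rab25 and 0.85 in pcDNA cells. That of GAPDH went the other way, at 0.30 and 0.26, and the part of RNA quality was not tested.

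NDUFV1, the subunit of complex I that binds NADH, was the member with the largest difference between lines. Its signal ran from 11.92 to 12.22 in Rab25 cells (median 12.06), against 11.33 to 11.80 in pcDNA cells (median 11.67), so the lines did not overlap, and the difference was 0.44 (SE 0.04, limma adjusted p = 6.18e-07) or 1.35-fold. COX8A, a small subunit of complex IV, ran from 12.83 to 13.17 in Rab25 (median 13.02) and from 12.45 to 12.80 in pcDNA cells (median 12.69), a difference of 0.37 (SE 0.04). NDUFS8, an iron-sulphur subunit on the path to ubiquinone, differed by 0.35 (SE 0.05), and its second probe set by 0.43. SDHD, a membrane anchor of complex II, ran from 11.11 to 11.45 in Rab25 and from 10.77 to 11.11 in pcDNA cells, ranges that met at 11.11, with a difference of 0.31 (SE 0.04), though a dim second probe set showed -0.06. NDUFC2, an accessory subunit of the membrane arm of complex I, differed by 0.25, and ATP5MG, subunit g of ATP synthase, by 0.22. The 3 other ATP5MG probe sets showed 0.64, 0.23 and 0.22. The other 5 that were higher, NDUFV2, ATP5PD, UQCRH, ATP5PO and COX6A1, differed by 0.09 to 0.16.

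The members that were lower in Rab25 cells included NDUFA9 at -0.27 (SE 0.05, limma adjusted p = 0.000394), NDUFB5 at -0.25 and NDUFB4 at -0.24, all accessory subunits of complex I. NDUFB4 ran from 13.74 to 13.88 in Rab25 cells (median 13.78) and from 13.92 to 14.13 in pcDNA cells (median 14.02), and NDUFB5 from 12.41 to 12.61 (median 12.49) and from 12.67 to 12.81 (median 12.75). For both genes the lines did not overlap. COX6C fell by 0.21, COX7A2L by 0.17, UQCRQ by 0.15, UQCRB by 0.12 and COX5B by 0.08. Of all 19 called members, the ranges of the lines were apart for NDUFV1, COX8A, ATP5MG, NDUFB4 and NDUFB5 and met or overlapped for the others. The share of all genes with ranges apart was not counted, so this is not read as a trait of the members. After centring and without the experiment term, COX7A2L, UQCRQ, UQCRB and COX5B were no longer called lower. Without the experiment term UQCRH, ATP5PO and COX6A1 were no longer called higher either. Of the isoform genes, COX7A2 (0.00), COX4I1 (-0.04) and COX6B1 (0.06) were not called. Over the 10 condition-by-experiment cells, 13 members were higher in Rab25 in all 10 and 8 were lower in all 10, as were 5.8% and 9.97% of all genes.

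Many members that differed between lines shared a chromosome, a view chosen after the values were seen. The 6 members with the lowest p among those higher, NDUFV1, COX8A, SDHD, ATP5MG, NDUFC2 and NDUFS8, all lie on chromosome 11, which holds 7 members. The 7th, NDUFS3, differed by -0.02 (SE 0.03) and comes before the other 6 in order. Other genes of chromosome 11 were higher in Rab25 cells too: 37.2% of 715 were called higher and 5.31% lower, with a median of 0.00 over the 244 genes before NDUFS3 and 0.15 over the 471 after it. NDUFB4 and NDUFB5 lie on chromosome 3, where 37.5% of 653 other genes were called lower, and UQCRB and COX6C on chromosome 8, where 33.2% of 425 were. NDUFA9 lies on chromosome 12, where 24.1% of 664 other genes were called lower. Their median was -0.18 over the 28 genes before NDUFA9 and -0.04 over the 636 after it. COX6A1, later on chromosome 12, was called higher at 0.09. Across the 73 members, the difference between lines correlated with the median of the 20 nearest measured genes at r = 0.74 (Spearman 0.51). Over the 66 members off chromosome 11 it did so at r = 0.59 (Spearman 0.38). Both are descriptions over genes that share the same arrays. For the response to FBS in experiment 1 the r over all 73 members was -0.09, and for the experiments in starved cells 0.14. NDUFV2 differed in sign from its neighbours, at 0.16 beside a median of -0.05 on chromosome 18.

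**Figure D5:**
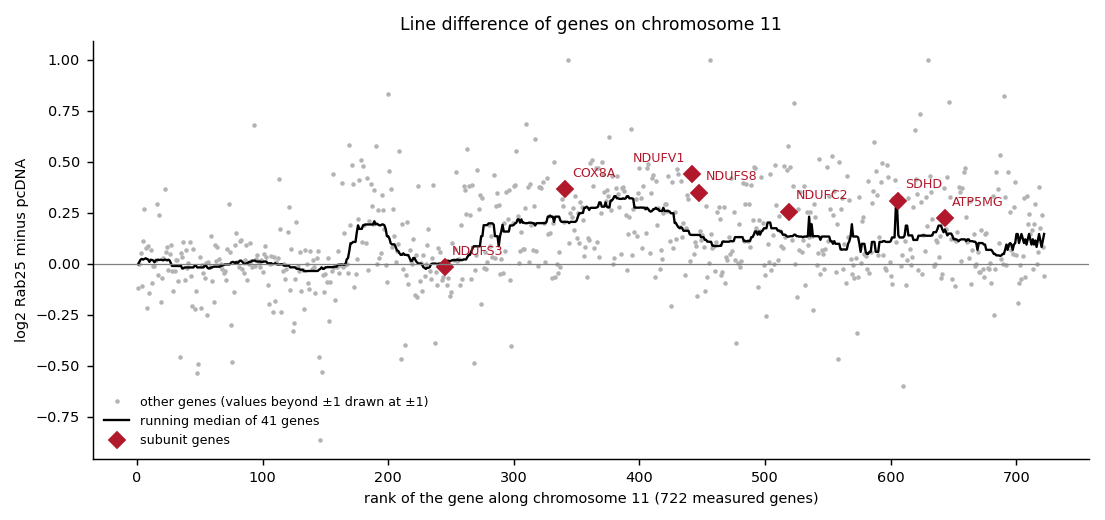
Points give the log2 difference of Rab25 from pcDNA cells for 722 genes in their order along chromosome 11; diamonds are the 7 members and the line is a running median of 41 genes, and values beyond 1 in size are drawn at 1. The 6 called members lie above 0.2 where the running median is also above 0, and NDUFS3 lies near 0 where the running median is near 0, though a stretch before it also lies above 0.

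Other genes of mitochondria were read from lists chosen with earlier results of these data known. In experiment 1, FBS was associated with higher levels of many of them: 23 of 53 mitochondrial ribosomal protein genes were higher and 2 lower, 16 and 2 of 33 genes of electron carriers and their partners, 10 and 3 of 25 of the citric acid cycle and pyruvate oxidation, and 8 and 2 of 30 assembly factors. Over all genes 17% were higher and 17.1% lower. The medians were 0.14, 0.22, 0.14 and 0.11, against -0.02 over all genes. Leaving out both Rab25 FBS arrays leaves 1 FBS array in experiment 1, and fewer genes of each of these lists were then called higher. The medians were then 0.16 for mitochondrial ribosomal proteins, 0.20 for carriers, 0.08 for the citric acid cycle and 0.07 for assembly factors. The median over all genes was -0.02. Examples were UCP2, an uncoupling protein family member, at 1.52, SDHAF3, an assembly factor of complex II, at 0.80, COA1, of complex IV, at 0.75, MPC2, of the pyruvate carrier, at 0.60, and citrate synthase CS at 0.41. Without both Rab25 FBS arrays these 5 were still called, with UCP2 at 0.82 and SDHAF3 at 0.45. Lists without that pattern were mitochondrial import (6 higher, 6 lower of 29), biogenesis regulators (4 and 3 of 23), glycolysis (3 and 5 of 21) and cytosolic ribosomal proteins (1 and 2 of 75). In glycolysis the glucose transporter SLC2A3 was lower at -1.32 and hexokinase HK2 at -0.92.

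In starved cells the same lists were set between experiments. Of 53 mitochondrial ribosomal proteins 28 were higher and 1 lower in experiment 2 than in experiment 1, of 30 assembly factors 11 and 1, and of 33 carriers 11 and 1. Of 25 citric acid cycle genes 9 were higher and 2 lower, of 23 biogenesis regulators 8 and 2, of 29 import genes 10 and 3, of 21 glycolysis genes 3 and 3, and of 75 cytosolic ribosomal proteins 2 and 1. Over all genes 14.8% were higher and 16.6% lower. The biogenesis regulators included PPRC1, a coactivator related to PGC-1, at 0.78 and TFAM, which binds mitochondrial DNA and is needed for its transcription, at 0.59, both higher. POLRMT, the mitochondrial RNA polymerase, was lower at -0.33, and SLC2A3 at -1.68.

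Between the lines, 28 of the 289 listed genes were higher in Rab25 cells and 40 lower, close to the 9.14% and 15.5% of all genes, so the lists as a whole did not stand out. On chromosome 11 lie 14 of the 28, which include COA4 (0.47) and TMEM126B (0.35), assembly factors of complexes IV and I, DLAT (0.41) and PDHX (0.26) of the pyruvate dehydrogenase complex, the import genes TIMM10 (0.38) and TIMM8B (0.29), and ESRRA (0.30), the gene of ERR alpha. Among the lower genes were COX17, the copper chaperone of complex IV on chromosome 3, at -0.90 (SE 0.04, limma adjusted p = 5.13e-11), PDP1, a phosphatase that activates pyruvate dehydrogenase, at -1.10, and the glycolysis genes SLC2A3 at -1.10, LDHB at -0.63 and TPI1 at -0.25. Of the 21 glycolysis genes 2 were higher and 7 lower, and of 23 biogenesis regulators 1 and 5. SLC2A3, LDHB and TPI1 lie on chromosome 12, as does ENO2, lower at -0.36. Of the 664 genes there that are not members, 24.1% were called lower. HK2, PGK1 and SLC2A1, also lower, lie on chromosomes 2, X and 1.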

How the data were processed

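The data were 24 Affymetrix high-throughput human Early Access arrays, 1 per sample. The values used were log2 signals per probe set as the authors deposited them, and the submitters' processing notes name MAS5 and RMA without a version, role or order. Array medians ran from 7.02 to 7.35. Of 22930 probe sets, 524 were controls, 19415 carried 1 gene symbol, 125 several and 2866 none. The platform's annotation gave the symbols, and the probe set of highest mean stood for each of 11940 genes.

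The lmFit and eBayes functions of limma (version 3.58.1, R 4.3.3) gave the differences over all genes and arrays, with 10 groups of line and condition and an experiment term, and p-values were adjusted by Benjamini-Hochberg over all genes (threshold 0.05). Experiment stood as the block because the samples' source names give it for each array. A fit with condition-by-experiment terms, in which each condition has its own difference between experiments shared by the lines, was added after the data were seen, and it gave every result within 1 experiment. The code was tested on simulated data. Summed marker signals are sums of 2 to the power of the log2 values.

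The members and lists were chosen with earlier results of these data known. Members named are up to 6 per direction and comparison by lowest p, core subunits, isoforms and the extremes of each complex. The lowest and highest members, chromosomes and motifs shown were read as descriptions. Alternatives were quantile normalization, centring on array medians, array weights, a median taken over the probe sets of each gene, dropping the 40% of genes of lowest mean, a trended robust prior, single experiments, no experiment term and leaving out arrays.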

Additional observations from a re-analysis of the deposited data

Results flagged for a closer look

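The response to FBS differed between the experiments by a test of the difference itself (limma, experiment 2 minus experiment 1) for named members of all the complexes. It was smaller in experiment 2 by -0.79 for ATP5MC1, -0.55 for NDUFB6, -0.50 for SDHA, -0.46 for ATP5MC3, -0.41 for UQCR10 and -0.38 for NDUFA6, and less negative by 0.27 for COX7A2L. The call for COX7A2L was lost under array weights and without both Rab25 FBS arrays, that for UQCR10 after centring, and that for NDUFA6 after centring and when a gene's probe sets were replaced by their median. Each rests on 1 FBS array per line and experiment, and the Rab25 ones carry the markers of other cell types described above, whose part in the difference was not tested.

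In pcDNA starved cells the lowest of the 4 arrays for NDUFB5, at 12.67, was marked by Dixon's test, which marks about 1 in 20 groups by chance. The gap was small, since the other 3 arrays were at 12.75 and all pcDNA arrays ran from 12.67 to 12.81.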

How the results depend on the processing

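Every named call kept its sign under the alternatives tried, but the median over members changed sign in 18 of 166 pairs of result and setting. These medians lay within 0.05 log2 units of 0, except for FBS in experiment 2 (0.11 after centring and 0.03 without both Rab25 FBS arrays, against -0.01), FBS in Rab25 cells (-0.03 in experiment 2 alone, against 0.08) and the line difference in the FBS response (0.02 after centring, against -0.05). Calls for members over all conditions between lines (19) became 12 without the experiment term, that is without the replicate block, and 34 after centring. In starved cells the 12 calls became 6 without the replicate block, 20 after quantile normalization, 25 with array weights, 5 in experiment 1 alone, 4 in experiment 2 alone and 21 with condition-by-experiment terms. FBS calls in pcDNA cells (3) became 0 without the replicate block, with array weights and in experiment 2 alone, 6 with the robust trended prior and without the 40% of genes of lowest mean, 7 after centring and without both Rab25 FBS arrays, 8 after quantile normalization and 17 in experiment 1 alone. FBS calls in Rab25 cells (1) became 0 without the replicate block, with array weights and in experiment 2 alone, 11 after centring, all higher where the 1 call had been lower, and 13 in experiment 1 alone. FBS in experiment 2 (0) had 2 calls after centring and with the robust trended prior and 1 without the 40% of genes of lowest mean. The 30 calls for the difference between experiments became 5 after centring, 14 with array weights and 8 without both Rab25 FBS arrays. IGF (0) had 1 call with array weights and in experiment 1 alone, and its difference between experiments 1 with the robust trended prior and without the 40% of genes of lowest mean. The cause was not tested. Between lines 24.7% of all genes were called, 13.9% without the experiment term and 26.7% after centring. In starved cells 14.8% were, 6.11% without the replicate block, 15.6% after quantile normalization, 27.4% with array weights and 24.2% with condition-by-experiment terms. Experiment 1 alone gave 15.1% there and experiment 2 alone 11.3%. For FBS the share was 6.75% in pcDNA cells, and 6.76% after centring, and in Rab25 cells 7.72% and 8.33%. In pcDNA cells it was 7.79% after quantile normalization and 10.4% without both Rab25 FBS arrays. It was 14.1% there without the 40% of genes of lowest mean and 7.09% with the robust trended prior. In experiment 1 alone, where each FBS group held 1 array, the share of all genes also rose in both lines and exceeded that of the members. The difference between experiments gave 22.5%, 22.1% after centring and 16.9% with array weights.

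Leaving out 1 array at a time gave 15 to 24 calls between lines, 9 to 14 in starved cells, 45 to 60 between experiments, 33 to 44 between experiments in starved cells, 19 to 45 for FBS in experiment 1 and 8 to 30 for the difference between experiments. For FBS in pcDNA cells the range was 0, without pcDNA FBS replicate 1, to 21, without pcDNA FBS replicate 2, with 1 call without each pcDNA starved array and 7 without each Rab25 FBS array. For FBS in Rab25 cells it was 0, without Rab25 FBS replicate 1 or Rab25 starved arrays 1-1, 1-2 or 2-1, to 17, without Rab25 FBS replicate 2. The call of ATP5F1A in pcDNA cells was lost without 21 of the 24 arrays taken singly. The share of all genes called is not given for the fits that leave out 1 array. Dim probe sets such as that of COX7A1 limit what can be read of those genes.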
